A study of Sus scrofa with 12 samples.

Results

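The muscle of 12 pigs was divided by the level of one transcript, FKBP5, and the 6 animals with the most of it were compared with the 6 with the least. All 12 animals of the series entered the comparison. The members were chosen from the FKBP5 count of each library, scaled to a total of 1000000 counts (CPM), so the FKBP5 difference is how the groups were made and is not a result. These are not the study's own groups. The study labelled 6 animals high drip and 6 low drip, with 3 females and 3 males in each, and set out to relate muscle transcripts to water holding capacity. Drip is the fluid that meat loses after slaughter. The animals were 167 to 189 days old, the tissue is labelled muscle with no muscle named, and no strain, treatment or genetic change is given for any of them. Each sample has its own number and is taken here as 1 animal.

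FKBP5 is a co-chaperone of HSP90 in the glucocorticoid receptor complex, where it lowers the receptor's affinity for hormone. The receptor, encoded by NR3C1, moves to the nucleus when it binds cortisol and switches genes on or off. FKBP5 is itself one of the genes it induces most reliably, so the FKBP5 transcript is often read as a sign of recent glucocorticoid action and forms a negative feedback loop. In muscle, glucocorticoids are known to raise PDK4, which spares glucose, and the ubiquitin ligases TRIM63 and FBXO32, which mark muscle proteins for breakdown. No cortisol value was used here, and FKBP5 is only a proxy of it.

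FKBP5 was highest in low drip replicate 2, a female, at 186 CPM. Low drip replicates 6 and 4, both males, followed at 156.2 and 155.7 CPM, and low drip replicate 1, a female, was at 146 CPM. High drip replicate 6, a male, at 73.7 CPM and high drip replicate 2, a female, at 72.3 CPM complete the high group. The values thus leave a wide gap after the 4th animal and hardly any at the threshold between the groups.

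The low group begins with high drip replicate 3, a female, at 72.0 CPM. Low drip replicate 5, a male, had 66.0 CPM and low drip replicate 3, a female, 65.5 CPM. High drip replicate 1, a female, had 61.7 CPM. High drip replicates 5 and 4, both males, were lowest at 56.8 and 41.6 CPM. FKBP5 was read from 455 to 1774 counts per library, so the 2 animals on either side of the threshold, at 72.25 and 72.03 CPM, are not separated by the measurement. Results are therefore also given without those 2, and with the 4 highest animals against the other 8, a grouping chosen after the gap was seen.

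**Figure D1:**
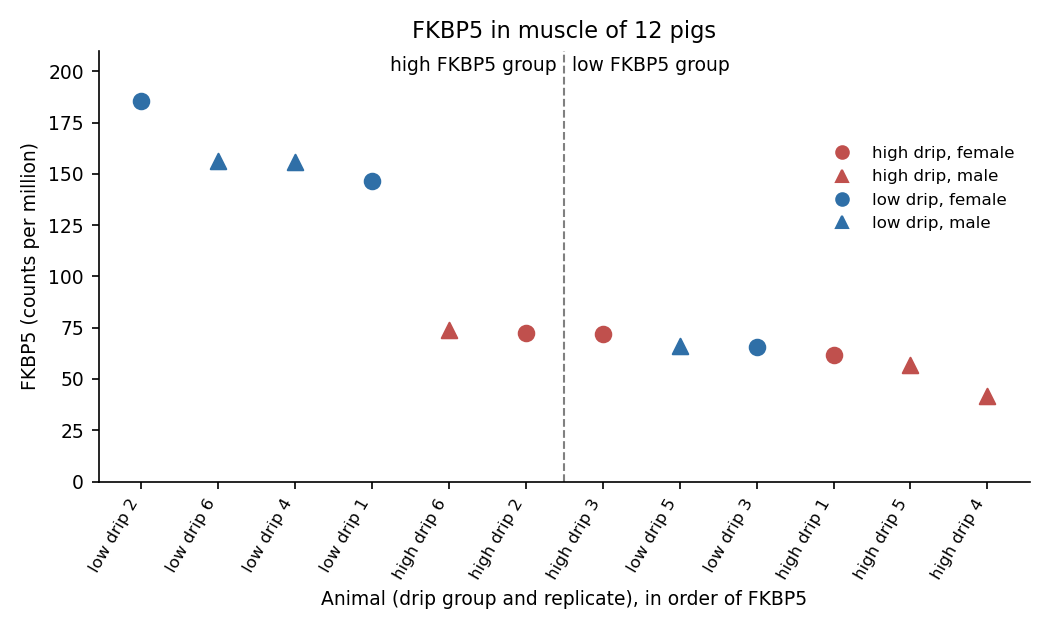
FKBP5 in CPM (vertical axis) in each of the 12 pigs, in order of that value (horizontal axis), with colour for drip label, shape for sex and a dashed line between the 2 groups of 6. The 4 highest animals, from 146 to 186 CPM, are all low drip, and the other 8 lie between 41.6 and 73.7 CPM.

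The high FKBP5 group held 4 low drip and 2 high drip animals, and the low FKBP5 group 2 low drip and 4 high drip animals. All 4 animals above the gap were low drip, and of the other 8 animals 6 were high drip and 2 low drip, so in that comparison drip goes with FKBP5. With the tables as recorded, described below with the libraries, 3 of those 4 animals would be low drip. Within high drip animals the high group had 73.7 and 72.3 CPM of FKBP5, against 41.6 to 72.0 CPM in the low group. Within low drip animals it had 146 to 186 CPM, against 66.0 and 65.5 CPM. Folds within the 2 drip labels thus rest on unlike FKBP5 differences. Each FKBP5 group held 3 females and 3 males. Age, which the rule did not use, was 174 ± 5.08 days in the high group and 180 ± 7.03 days in the low group (mean ± SD, n = 6 each). The difference of -5.67 days had an exact permutation p of 0.180 (two-sided, all 924 regroupings), so no difference in age was shown.

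Libraries held 8009627 to 12622043 counts, and 13183 to 14047 of 20741 features had a count. Muscle fibre markers were abundant in all 12 libraries, with 6 of them summing to between 117067 and 157142 CPM. Transcripts of liver plasma proteins stood out in some libraries: albumin passed 10 CPM in 2 of the 6 high FKBP5 animals and in 4 of the 6 low FKBP5 animals, with the highest value, 317 CPM, in high drip replicate 2. The whole-genome tables of 3 females, low drip replicates 1 and 2 and high drip replicate 2, were recorded for one another. Each was given to the animal whose number it carried, whose region table it also matched. All 3 are female and all 3 are in the high FKBP5 group, so neither the groups nor the sex term of the fit depends on that choice, while drip labels and ages do.

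Across all features no gene passed the test. Of 10092 features tested with edgeR's quasi-likelihood test, sex included as a term, 0 had an adjusted p under 0.05 (0%), and the smallest adjusted p was 0.594. Without adjustment, 659 features (6.53%) had a p under 0.05, of which 257 (2.55%) were higher and 402 (3.98%) lower in the high FKBP5 group. With upper quartile scaling in place of TMM the split was 327 higher and 318 lower, so the excess of lower features depends on the scaling. limma voom also called 0, with 666 features (6.6%) under an unadjusted 0.05. DESeq2 called 11 of 9679 (0.114%), 2 higher (0.0207%) and 9 lower (0.093%). Every gene below is thus given by its values and its unadjusted p, and none is called changed by the main test. Folds are log2, high minus low FKBP5, and the median over all tested features was 0.00.

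The genes most apart on the lower side included an inhibitor of protein phosphatase 1 and several mitochondrial proteins. PPP1R14C, the phosphatase inhibitor, ran from 277 to 357 CPM (median 318) in the high FKBP5 animals and from 393 to 543 CPM (median 452) in the low FKBP5 animals. The 2 ranges did not overlap, and the fold was -0.53 ± 0.10 (SE; unadjusted p = 7.03e-05, adjusted p = 0.594). DESeq2 gave it an adjusted p of 0.00231.

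ARG2, the mitochondrial arginase that splits arginine into urea and ornithine, had 30.3 to 43.6 CPM (median 39.3) in the high group and 44.2 to 153 CPM (median 80.1) in the low group. The groups again did not overlap, though only narrowly, since high drip replicate 3 at 44.2 CPM sat next to low drip replicate 1 at 43.6 CPM. Its fold was -1.14 ± 0.23 (unadjusted p = 0.000337, adjusted p = 0.594). Without high drip replicate 3, the animal just under the threshold, ARG2 became the 1 feature past the adjusted test (0.00982% of those tested; fold -1.28, adjusted p = 0.0199). Without both animals at the threshold it was 1 of 2 features to pass (0.0199%; fold -1.22, adjusted p = 0.0336). With the 4 highest animals against the other 8 its fold was -0.80 (unadjusted p = 0.064).

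PRDX3, a mitochondrial peroxiredoxin that removes hydrogen peroxide, had 349 to 407 CPM (median 383) in high FKBP5 and 443 to 519 CPM (median 495) in low FKBP5 animals. PINK1, the kinase that marks damaged mitochondria for removal, had 112 to 133 CPM (median 122) against 141 to 205 CPM (median 151). RNF157, a ubiquitin ligase, had 93.9 to 113 CPM (median 107) against 132 to 211 CPM (median 141). In each of these 3 genes every high FKBP5 animal lay below every low FKBP5 animal. Their folds were -0.34 ± 0.08, -0.41 ± 0.10 and -0.54 ± 0.11, with unadjusted p of 0.000617, 0.000900 and 0.000297.

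Such separation was rare. In 28 of the 10092 features (0.277%) the groups did not overlap, 6 with the high FKBP5 animals above (0.0595%) and 22 with them below (0.218%). TUT4, which adds uridines to RNA ends, was one of the 6. It had 35.1 to 52.3 CPM (median 39.8) in the high group and 20.5 to 34.3 CPM (median 28.5) in the low group, with a fold of 0.51 ± 0.14 (unadjusted p = 0.00205).

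**Figure D2:**
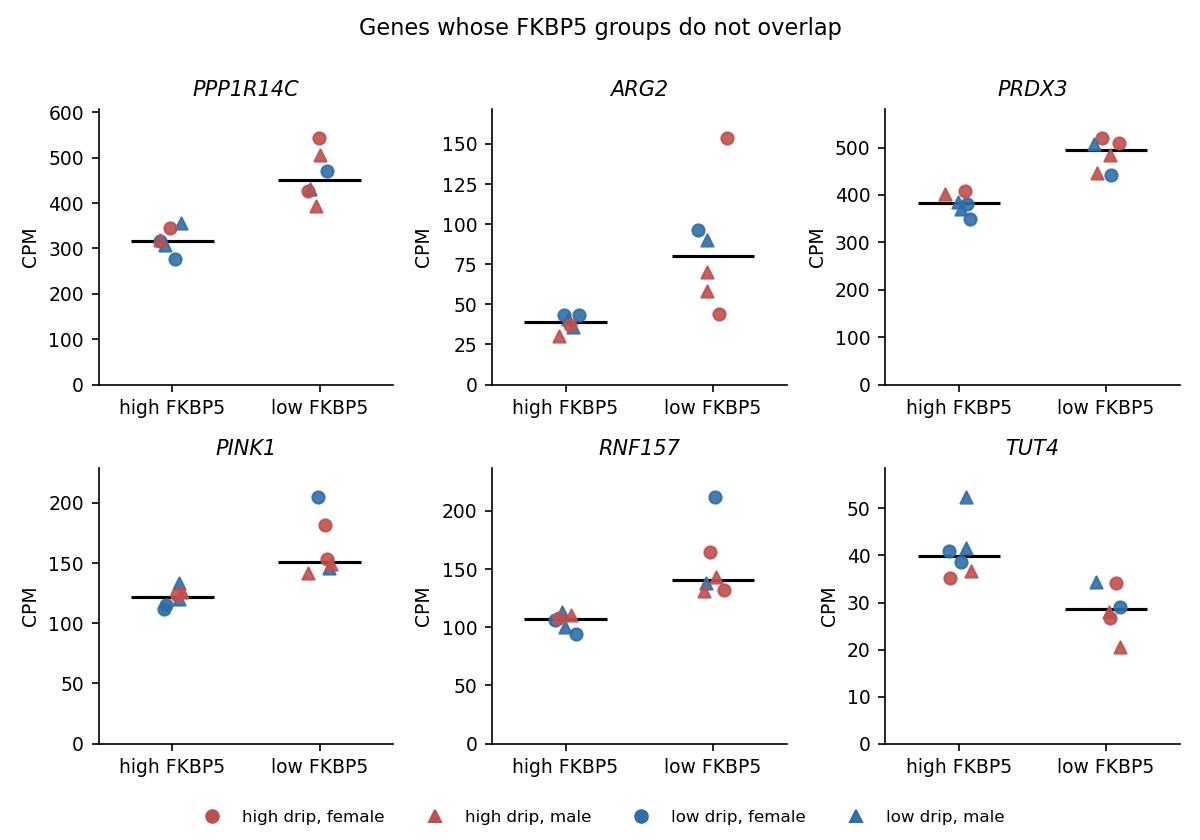
CPM (vertical axes, from 0) of 6 genes whose high and low FKBP5 groups do not overlap, 1 point per animal, with colour for drip label, shape for sex and a black line at each group's median. PPP1R14C, ARG2, PRDX3, PINK1 and RNF157 lie lower and TUT4 higher in the high FKBP5 animals; in ARG2 the groups nearly touch, at 43.6 and 44.2 CPM.

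The other lower genes of smallest p overlapped between groups. LCLAT1, an acyltransferase that remodels the mitochondrial lipid cardiolipin, had 21.4 to 67.5 CPM (median 40.0) in the high group against 55.9 to 118 CPM (median 79.1), with a fold of -1.05 ± 0.24. Among low drip animals alone, 4 against 2, its fold was -1.52 (adjusted p = 0.00888), and it was 1 of the 2 features past the test there (0.0192%); the other has no symbol. Among high drip animals alone, 2 against 4 and with a much smaller FKBP5 difference, LCLAT1 had a fold of -0.62 (unadjusted p = 0.19).

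PDZRN3, a ubiquitin ligase known from the neuromuscular junction, had a fold of -0.46 ± 0.10. LRP11, a receptor-like membrane protein, had -0.58 ± 0.14, and CLIP4, of a family that binds microtubule ends, -1.41 ± 0.34. RHOBTB1 had -0.48 ± 0.12. The feature of smallest p with no symbol, ENSSSCG00000027536, had 2.74 to 6.04 CPM against 6.98 to 10.5 CPM and a fold of -0.82 ± 0.18. All 5 had unadjusted p of 0.00145 or less and an adjusted p of 0.594. DESeq2 called PPP1R14C, ARG2, PRDX3, RNF157, LCLAT1, PDZRN3, CLIP4 and that unnamed feature among its 9 lower features.

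On the higher side the genes of smallest p were led by proteins of the fat cell. LIPE, the hormone-sensitive lipase that releases fatty acids from stored fat, had 19.2 to 32.5 CPM (median 24.6) in the high FKBP5 group and 11.1 to 21.5 CPM (median 15.2) in the low group. The groups overlapped, with high drip replicate 5 at 21.5 CPM above the lowest 2 of the high group. Its fold was 0.71 ± 0.17 (unadjusted p = 0.000789, adjusted p = 0.594).

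PLIN1, the perilipin that coats lipid droplets of fat cells, had 4.93 to 16.3 CPM (median 10.6) against 3.19 to 7.88 CPM (median 4.52). Low drip replicate 2, the animal with the most FKBP5, had the 4.93 CPM, less than 3 of the low FKBP5 animals; the other 5 high FKBP5 animals lay above the whole low group. The fold was 1.10 ± 0.26 (unadjusted p = 0.000847). FASN, fatty acid synthase, had 37.7 to 77.0 CPM (median 48.7) against 15.9 to 38.8 CPM (median 26.3), with a fold of 0.93 ± 0.23 (unadjusted p = 0.00145). PLIN1 and FASN were the 2 higher genes that DESeq2 called, both at an adjusted p of 0.0487.

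The list of adipocyte and lipogenesis genes held 20 genes, of which 11 were tested. In it 9 members were higher and 2 lower, where 51.1% of all tested features were higher. An unadjusted p under 0.05 was reached by 7 higher members and 1 lower one, beside 2.55% and 3.98% of all features, and the median fold was 0.76. CIDEC, which fuses lipid droplets, had a fold of 0.99 ± 0.29, and PPARG, the master regulator of fat cell formation, 0.78 ± 0.29. ACACA and ACLY, the enzymes that make malonyl-CoA and cytosolic acetyl-CoA, had 0.41 ± 0.18 and 0.31 ± 0.15.

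SCD, the stearoyl-CoA desaturase, was spread widely, from 79.8 to 471 CPM (median 147) in the high group and from 44.1 to 171 CPM (median 118) in the low group, with a fold of 0.82 ± 0.49 (unadjusted p = 0.126). PCK1 had a fold of 0.76 ± 0.57 at no more than 4.75 CPM in any animal. The member that lay lower was PLIN4, a perilipin that coats droplets in muscle fibres as well, at -0.42 ± 0.18 (unadjusted p = 0.0403), and ME1, the malic enzyme, had -0.14 ± 0.15.

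Markers of fat cells were followed in each animal. Of 8 markers 5 had an ID and 4 were tested (LIPE, PPARG, CIDEC and PLIN1, which are also in the list above), and ADRB3 was under 1 CPM in all animals. The 5 summed to 31.3 to 71.4 CPM (median 52.1) in the high FKBP5 animals and 20.9 to 32.0 CPM (median 28.8) in the low FKBP5 animals. Only low drip replicate 2, at 31.3 CPM, fell inside the range of the low group. In bulk muscle, more fat cells and more of these transcripts per cell cannot be told apart, and the part of fat cell content in these differences was not tested.

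The count of higher members was 9 in every alternative but 1, males alone, where all 11 were higher. Of all features 48.5% to 55.4% were higher across the alternatives. The number of higher members with an unadjusted p under 0.05 was less steady. It was 5 with drip added to the fit, where 1.98% of all features were higher with such a p, and 4 with drip as recorded (2.11%). It was 4 among high drip animals alone (1.17% of all), 2 among low drip animals alone (1.62%), and 2 with log2 FKBP5 as a continuous term (3.3%). With the 4 highest animals against the other 8 it was 3 (2.78% of all) and the median fold was 0.41.

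**Figure D3:**
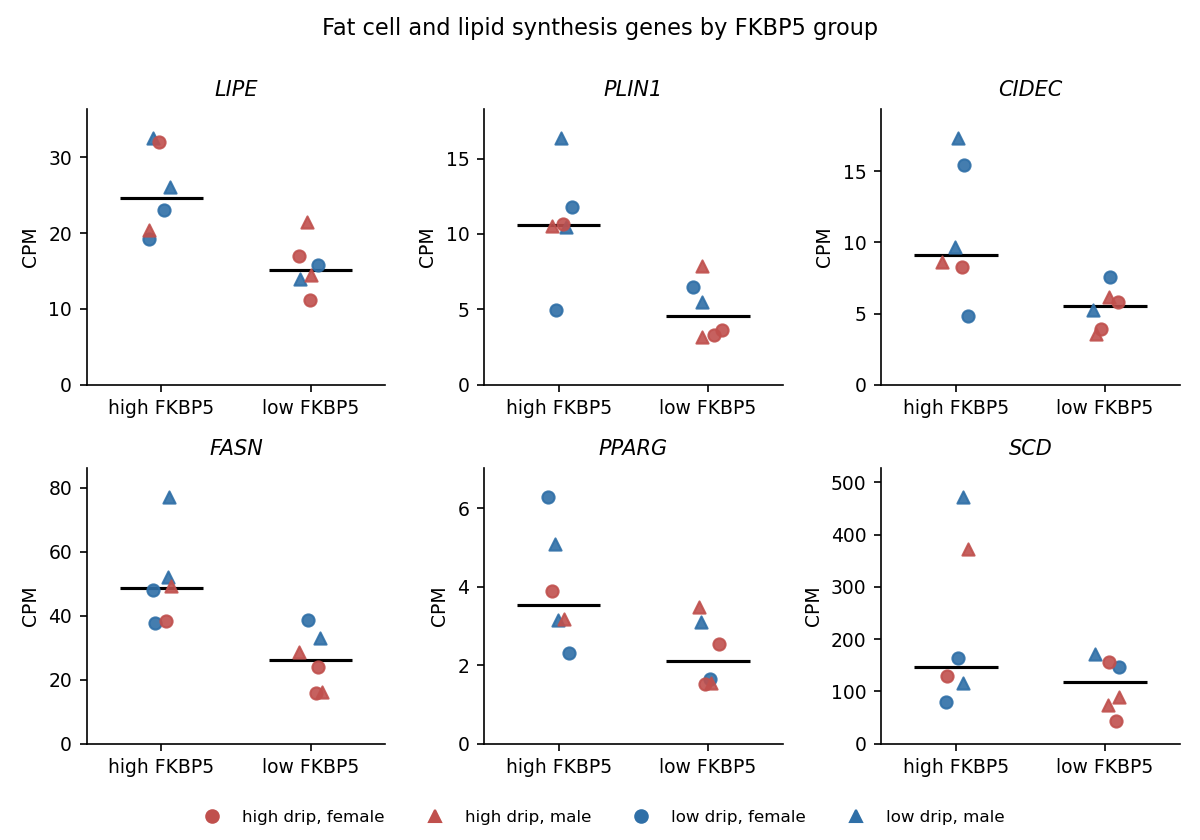
CPM (vertical axes, from 0) of 6 fat cell and lipid synthesis genes in the high and low FKBP5 animals, 1 point per animal, with colour for drip label, shape for sex and a black line at each group's median. The high group's median is above the low group's in all 6 genes, and the groups overlap in each; SCD is spread most, up to 471 CPM.

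The remaining higher genes of smallest p had other roles. RETSAT, the retinol saturase, had 13.5 to 25.8 CPM (median 23.2) against 12.6 to 16.5 CPM (median 13.8) and a fold of 0.59 ± 0.15. MAL2, a membrane trafficking protein, had 0.857 to 2.59 CPM against 0.118 to 1.30 CPM and a fold of 1.37 ± 0.34, from 1 to 29 counts. ODAD4 and TMEM107, both proteins of cilia, had folds of 0.90 ± 0.23 and 0.61 ± 0.17. MTX3, of the mitochondrial outer membrane, had 0.77 ± 0.20, and SLC45A4, a solute carrier, 0.99 ± 0.26. Their unadjusted p ran from 0.00112 for MAL2 to 0.00239 for TMEM107.

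The glucocorticoid receptor differed between the groups by less than its spread. NR3C1 had 49.2 to 81.1 CPM (median 58.5) in the high group and 53.6 to 123 CPM (median 59.5) in the low group, with a fold of -0.19 ± 0.17 (unadjusted p = 0.271). The groups lay over one another, and the 123 CPM came from low drip replicate 5 alone; without that animal the fold was 0.01. Among 11 tested genes of the receptor, its cofactors and steroid handling, 6 were higher and 5 lower with a median fold of 0.00. Of all features 51.1% were higher. The cofactor EP300, a histone acetyltransferase, was the 1 member with an unadjusted p under 0.05 (-0.29 ± 0.10), and its relative CREBBP had -0.23 ± 0.11 (unadjusted p = 0.0533). Lower features with an unadjusted p under 0.05 made up 3.98% of all.

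The partners of the receptor in the HSP90 complex leaned lower. Of 13 tested chaperones and co-chaperones, 11 had a fold below 0, where 48.9% of all features did, and the median was -0.14. HSPA4 had 142 to 208 CPM (median 169) against 166 to 247 CPM (median 222), with a fold of -0.30 ± 0.11 (unadjusted p = 0.0175). STIP1, which hands clients from HSP70 to HSP90, had -0.23 ± 0.10 (unadjusted p = 0.0298). FKBP4, the co-chaperone that competes with FKBP5 and favours receptor transport, had 249.6 to 328 CPM (median 294) against 276 to 399 CPM (median 296), with a fold of -0.12 ± 0.11. HSP90AA1 had -0.21 ± 0.10 (unadjusted p = 0.059). The median of the list was -0.31 in females alone and 0.08 in males alone.

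Other genes known to be induced by glucocorticoids showed no common direction between the 2 groups of 6. Of 18 tested members, 11 were higher and 7 lower, where 51.1% of all features were higher. The median fold was 0.09, and no higher member had an unadjusted p under 0.05. BCL6, a transcriptional repressor, was the 1 lower member under that mark, at -0.49 ± 0.19 (unadjusted p = 0.0214), beside 3.98% of all features. PER1, a clock gene with a glucocorticoid response, had 75.2 to 147 CPM (median 103) in the high group and 97.3 to 215 CPM (median 136) in the low group, with a fold of -0.45 ± 0.23. ZBTB16 had 24.0 to 31.5 CPM against 18.8 to 33.6 CPM and a fold of -0.01 ± 0.15, and SGK1, a kinase that regulates ion transport, had 0.20 ± 0.19. NFKBIA, which holds NF-kappaB in the cytoplasm, had 0.38 ± 0.19 (unadjusted p = 0.0629).

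KLF9 and AGT were highest among the 4 animals above the gap. KLF9, a transcription factor, had 211 to 349 CPM in those 4 and 144 to 233 CPM in the other 8, so the 2 ranges overlapped. Its fold was 0.55 (unadjusted p = 0.0029) in that comparison and 0.31 ± 0.19 (unadjusted p = 0.122) between the groups of 6. AGT, the precursor of angiotensin, had 21.7 to 32.5 CPM in the 4 and 12.1 to 25.7 CPM in the other 8, with folds of 0.66 (unadjusted p = 0.00031) and 0.47 ± 0.17 (unadjusted p = 0.0164).

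Those 4 animals are all low drip by the number their tables carry, and the part of drip in these values was not tested apart from FKBP5. With drip added to the fit of the 2 groups of 6, KLF9 had a fold of 0.18 and AGT of 0.29, and with drip as recorded 0.36 and 0.32. Among the 6 low drip animals alone the folds were 0.55 and 0.42, and among the 6 high drip animals alone -0.20 and 0.12. The FKBP5 groups differed far less in FKBP5 among high drip animals, so these folds are not alike. With the 4 highest against the other 8, 14 of the 18 glucocorticoid-induced genes were higher, 2 of them with an unadjusted p under 0.05, and the median was 0.25. Of all features 50.5% were higher in that comparison and 2.78% were higher with such a p (5.42% in either direction), and 0 passed adjustment. The median of the list was 0.33 in females alone and -0.08 in males alone.

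Muscle targets of glucocorticoids did not separate the groups of 6. PDK4 had 82.8 to 3157 CPM (median 2201) in the high group and 798 to 2840 CPM (median 2286) in the low group, with a fold of 0.12 ± 0.68. The 82.8 CPM was in high drip replicate 6, far below the next animal at 798 CPM. TRIM63 had 325 to 1284 CPM (median 815) against 510 to 859 CPM (median 743), with a fold of 0.21 ± 0.29. FBXO32 had 25.8 to 114 CPM (median 86.0) against 41.4 to 137 CPM (median 79.2), with a fold of -0.12 ± 0.45. The symbols TSC22D3, KLF15, FOXO1, DDIT4, CEBPD, GLUL, MT1A and MT2A matched no ID, so these well known targets are not analysed here.

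**Figure D4:**
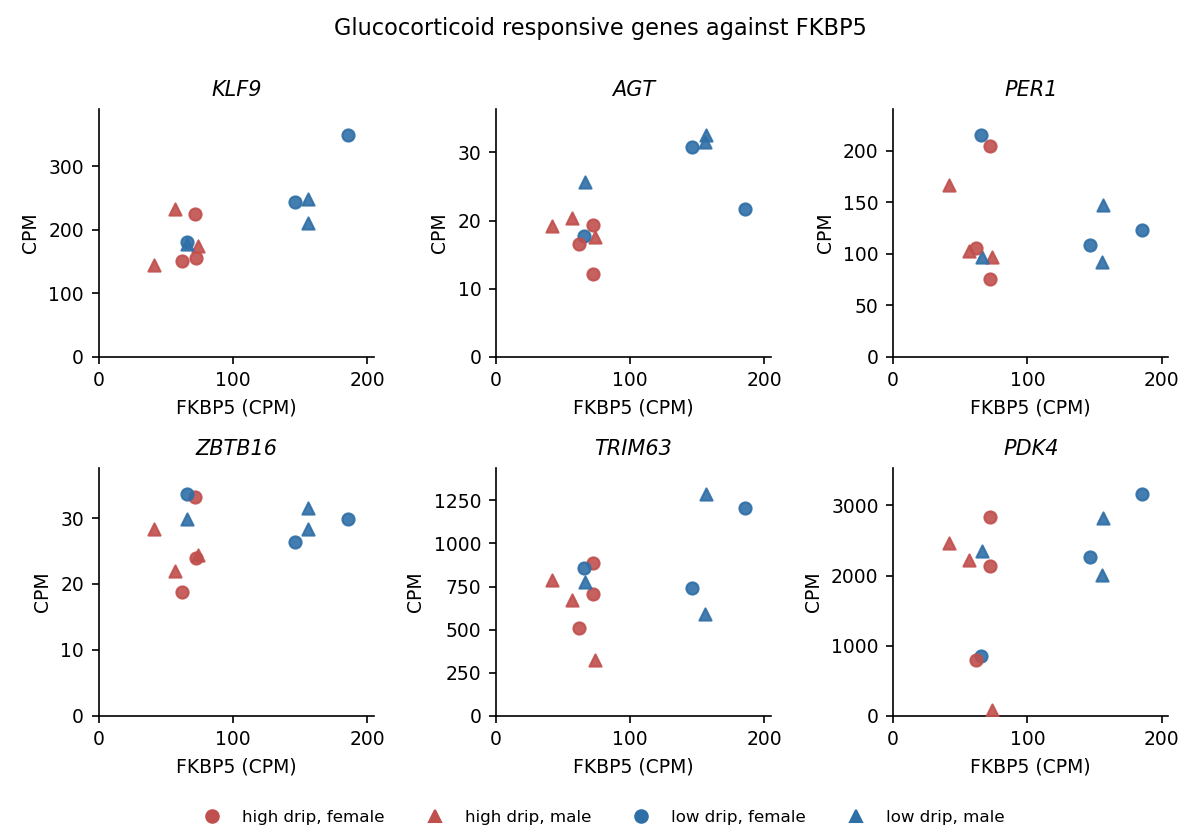
CPM of 6 glucocorticoid responsive genes (vertical axes, from 0) against FKBP5 CPM (horizontal axes), 1 point per animal, with colour for drip label and shape for sex. KLF9 and AGT lie higher among the 4 animals above 140 CPM of FKBP5, up to 349 and 32.5 CPM, but overlap the other 8. PER1, ZBTB16 and PDK4 show no such shift, and 1 animal is at 82.8 CPM of PDK4. TRIM63 runs from 325 to 1284 CPM in the high and from 510 to 859 CPM in the low FKBP5 group.

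Among 20 tested genes of atrophy, autophagy and proteolysis, 7 were higher and 13 lower, where 48.9% of all features were lower, with a median fold of -0.03. The 3 lower members with an unadjusted p under 0.05, as 3.98% of all features had, were PSMD11, a proteasome subunit (-0.32 ± 0.11), CAPN1, the calpain of meat tenderness (-0.24 ± 0.10), and FBXO40, a ligase that targets the insulin receptor substrate (-0.34 ± 0.15). Of 18 genes of insulin, IGF and mTOR signalling, 11 were higher with a median of 0.07, where 51.1% of all features were higher. GRB10, an adaptor that restrains insulin and IGF receptors, had 153 to 331 CPM (median 208) against 119 to 191 CPM (median 175) and a fold of 0.43 ± 0.12 (unadjusted p = 0.00343). SESN2, a stress-induced inhibitor of mTORC1, had 71.0 CPM in low drip replicate 2 and 29.8 CPM in low drip replicate 1, and at most 13.1 CPM in the other animals. Its fold was 1.31 ± 0.61 (unadjusted p = 0.0574).

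Subunits of the respiratory chain leaned lower in the high FKBP5 animals by a small amount. Of 24 tested nuclear genes of oxidative phosphorylation, 23 had a fold below 0, 9 of them with an unadjusted p under 0.05, and the median was -0.19. Of all features 48.9% were below 0 and 3.98% were lower with such a p. UQCRC1, a core subunit of complex III, had 332 to 492 CPM (median 366) against 437 to 558 CPM (median 469), with a fold of -0.34 ± 0.10 (unadjusted p = 0.00324). SDHD, a membrane anchor of complex II, had 255 to 303.6 CPM (median 282) against 304.3 to 337 CPM (median 324). Its groups did not overlap but nearly touched (-0.21 ± 0.07, unadjusted p = 0.00944). NDUFB9, of complex I, had -0.30 ± 0.12.

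The summed level of the 24 genes was 6831 to 8281 CPM (median 7244) in the high group. The 4 animals above the FKBP5 gap had 6831 to 7365 CPM, the lowest 4 values of all 12 animals. With those 4 against the other 8, 23 members were lower, again 9 with an unadjusted p under 0.05. In that comparison 50.5% of all features were higher, and 2.64% were lower with such a p. The count was 3 with drip added (3.75% of all), 8 with drip as recorded (3.67%), 2 with age added (3.64%) and 2 without low drip replicate 2 (2.58%). Among high drip animals alone 19 were lower, 0 of them with such a p (1.45% of all), and the median was -0.08. Among low drip animals alone 23 were lower, 1 with such a p (2.45% of all), and the median was -0.25. Of all features 51.1% were higher among high drip animals alone and 51.5% among low drip animals alone. FKBP5 itself differed far less between the groups in high drip than in low drip animals.

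Fibre genes also leaned lower. Of 15 slow fibre genes listed only 5 had an ID, and MYH7 was not among them. All 5 were lower, with a median of -0.36, where 48.9% of all features were lower. Of these, 3 had an unadjusted p under 0.05 (3.98% of all features were lower with such a p). MYH7B, a slow type myosin heavy chain gene, had 60.8 to 113 CPM (median 64.4) in the high group and 55.8 to 168 CPM (median 122) in the low group, with a fold of -0.65 ± 0.23 (unadjusted p = 0.0171). It was 60.8 to 64.8 CPM in the 4 highest FKBP5 animals, and only high drip replicate 1 was below them at 55.8 CPM. TNNT1, slow troponin T, had -0.32 ± 0.11, and MYL3, a slow myosin light chain, -0.39 ± 0.16. Among high drip animals alone, where FKBP5 differed little at the threshold, the MYH7B fold was -0.09. It was -1.16 among low drip animals alone, where the FKBP5 groups were far apart.

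Of 18 fast fibre genes listed 11 were tested, without MYH1, MYH2 and MYH4. Among the 11 tested, 10 were also lower, with a smaller median of -0.07, where 48.9% of all features were lower. Of these, 1 had an unadjusted p under 0.05, ATP2A1, beside 3.98% of all features that were lower with such a p. ATP2A1, the fast calcium pump, had -0.26 ± 0.11 (unadjusted p = 0.0319), ENO3, the muscle enolase, -0.17 ± 0.11, and CASQ1, calsequestrin, -0.14 ± 0.08. The 6 muscle fibre markers were all below 0, as were 48.9% of all features. Of the 6, MYL1 and TNNC2 are also among the 11 fast fibre genes. The median of the 6 was -0.11, none had an unadjusted p under 0.05, and ACTA1, skeletal actin, had -0.18 ± 0.10. In males alone the fast fibre median was 0.02.

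**Figure D5:**
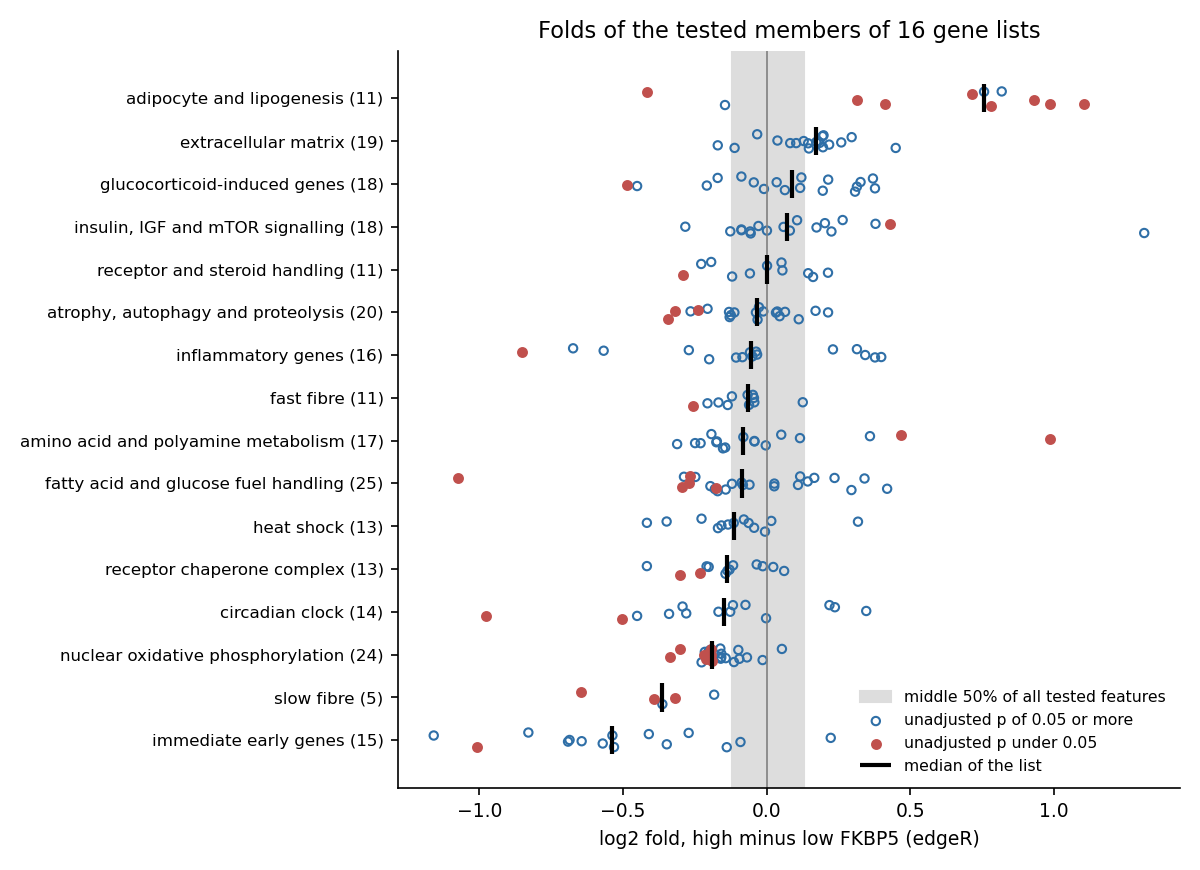
Log2 fold, high minus low FKBP5 (horizontal axis), of each tested member of 16 gene lists (vertical axis, number tested in brackets), with filled points where the unadjusted p is under 0.05, a black bar at each list's median and a grey band over the middle 50% of all tested features. The adipocyte and lipogenesis list lies furthest right with a median of 0.76, and the immediate early genes furthest left with -0.54.

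Genes of fuel use were mixed. Of 25 tested members, 10 were higher and 15 lower, where 48.9% of all features were lower, with a median of -0.09. An unadjusted p under 0.05 was reached by 5 lower members, beside 3.98% of all features. HK2, the hexokinase that traps glucose in the fibre, had 17.9 to 31.8 CPM (median 21.8) against 20.1 to 103 CPM (median 43.6) and a fold of -1.07 ± 0.37 (unadjusted p = 0.014). In 4 of the 6 low FKBP5 animals HK2 was above the whole high group, and in the other 2, high drip replicates 3 and 5, it was not. HADHA and HADHB, the subunits of the mitochondrial trifunctional protein, had -0.27 ± 0.10 and -0.18 ± 0.08. PYGM, muscle glycogen phosphorylase, had -0.27 ± 0.11.

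In amino acid and polyamine metabolism 5 members were higher and 12 lower, with a median of -0.08, where 48.9% of all features were lower. An unadjusted p under 0.05 was reached by 2 higher members, SLC3A2 and PSAT1, beside 2.55% of all features. SLC3A2, the heavy chain shared by several amino acid transporters, had 165 to 387 CPM (median 278) against 166 to 228 CPM (median 195), with a fold of 0.47 ± 0.14 (unadjusted p = 0.00381). PSAT1, an enzyme of serine synthesis, had a fold of 0.99 ± 0.40 (unadjusted p = 0.029), with 24.8 CPM in low drip replicate 2 and 11.8 CPM in high drip replicate 2, while the other 10 animals had at most 6.23 CPM. In males alone the PSAT1 fold was 0.12.

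Clock genes were lower in 11 of 14 cases, with a median of -0.15, where 48.9% of all features were lower. An unadjusted p under 0.05 was reached by 2 lower members, NFIL3 and PER2, beside 3.98% of all features. NFIL3, a repressor of the clock output that opposes DBP, had 13.0 to 37.9 CPM (median 27.3) against 21.0 to 83.9 CPM (median 53.5), with a fold of -0.98 ± 0.33 (unadjusted p = 0.0135). PER2 had 15.6 to 30.0 CPM against 15.5 to 42.0 CPM and a fold of -0.50 ± 0.20 (unadjusted p = 0.0222). With the 4 highest animals against the other 8, 7 clock genes were higher and 7 lower, where 50.5% of all features were higher. The labels used here give no time of day for the samples.

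Immediate early genes, which respond within minutes to stimuli, had the lowest median of the 16 lists, -0.54, with 14 of 15 below 0. NR4A2, a nuclear receptor, had 2.73 to 6.71 CPM (median 3.64) against 4.13 to 13.2 CPM (median 8.71) and was the 1 member with an unadjusted p under 0.05 (-1.01 ± 0.28, unadjusted p = 0.00299). Of all features 48.9% were below 0 and 3.98% were lower with such a p. FOS, a subunit of the AP-1 factor, had 30.9 to 670 CPM (median 106) against 81.0 to 818 CPM (median 277), a fold of -1.16 ± 0.80 (unadjusted p = 0.179). The list's median was -1.06 in males alone, 0.16 in females alone and -0.06 with the 4 highest animals against the other 8.

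Of 16 inflammatory genes 5 were higher and 11 lower, with a median of -0.05, where 48.9% of all features were lower. Only 1 member, IL6R, had an unadjusted p under 0.05, beside 3.98% of all features that were lower with such a p. IL6R, the interleukin-6 receptor, had 11.4 to 41.2 CPM (median 16.1) in the high group and 13.4 to 49.2 CPM (median 34.7) in the low group, with a fold of -0.85 ± 0.36 (unadjusted p = 0.0391). Apart from the 2 animals at the threshold the groups did not overlap: the overlap came from high drip replicate 2, at 41.2 CPM in the high group, and high drip replicate 3, at 13.4 CPM in the low group. Without these 2, IL6R passed the adjusted test (fold -1.33, adjusted p = 0.0336), with ARG2 the only other feature to do so. Its fold was -1.53 in males alone and -0.18 in females alone.

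No tested member of the heat shock or extracellular matrix lists had an unadjusted p under 0.05. Of 13 heat shock genes 11 were below 0 (median -0.11), as were 48.9% of all features, and DNAJB1 had -0.42 ± 0.28. Of 19 matrix genes 16 were above 0 (median 0.17), as were 51.1% of all features. ELN, elastin, was at 0.45 ± 0.25 and LUM, lumican, at 0.26 ± 0.13. In females alone 18 of the 19 were higher, 7 of them with an unadjusted p under 0.05 (3.8% of all features). In males alone 6 were higher. Of all features 53.0% were higher in females alone and 50.2% in males alone.

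Markers of other cell types were compared in the same way. Of all features 51.1% were above 0, and 2.55% were higher with an unadjusted p under 0.05. All 7 fibroblast markers were above 0 (median 0.20), none with such a p. Of these, DCN, LUM, COL1A2 and COL3A1 are also in the matrix list. The 7 summed to 3533 to 4797 CPM in the high and 2980 to 5606 CPM in the low group. Of 7 macrophage markers 5 were above 0, while LYZ had -0.66 ± 0.88 and CD68 -0.006. Only ITGAM had an unadjusted p under 0.05, with 3.39 to 8.06 CPM against 1.42 to 4.60 CPM (0.74 ± 0.25, unadjusted p = 0.0088). The 8 macrophage markers with an ID summed to 51.2 to 98.6 CPM in the high and 33.9 to 103 CPM in the low group. Endothelial markers were 4 higher and 4 lower (median -0.03), and lymphocyte markers 2 and 4 (median -0.19). The 11 tested liver markers were all above 0 with a median of 0.66. Their sum was 7.05 to 610 CPM (median 11.6) in the high and 7.57 to 105 CPM (median 62.6) in the low group, so the medians and the folds differ in direction, and the 610 CPM was in high drip replicate 2. With the presence of liver transcripts added to the fit, edgeR again called 0 features, and 705 (6.99%) had an unadjusted p under 0.05.

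The genes most like FKBP5 over the 12 animals were ranked by Pearson's r of log2 CPM among 7052 tested genes with a symbol. The first were POLK, ZNF518A, TUT4, GSTCD, EXOSC1, CCDC6, SLC33A1 and GGNBP2. At the opposite end were UQCRFS1, LINGO1, PDHB, ABCA7, COX5A, DYNLL2, HADHB and ATP5MC3. FKBP5 falls into 2 clusters of 4 and 8 animals, so r is given only within the 8 lower animals, as a description of genes picked on all 12. There TUT4 had an r of 0.95 (Spearman's coefficient 0.95) and POLK 0.79 (0.60), while GGNBP2 had the lowest of the 8, 0.34 (0.38).

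Among the opposed genes in those 8 animals, HADHB had an r of -0.76 (Spearman's -0.43), ABCA7, a lipid transporter, -0.75 (-0.71) and UQCRFS1, the Rieske subunit of complex III, -0.62 (-0.50). COX5A had -0.59 (-0.86) and ATP5MC3 -0.50 (-0.24). The other 3 were weaker in r, with PDHB at -0.34 (-0.29), LINGO1 at -0.23 (-0.76) and DYNLL2 at -0.18 (-0.05). POLK, a translesion DNA polymerase, had 8.37 to 12.7 CPM in the high and 5.41 to 8.81 CPM in the low FKBP5 group. LINGO1, a membrane protein of neurons, had 15.4 to 30.6 CPM against 33.6 to 52.5 CPM. The points share libraries and scaling, and no test is attached to them.

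The difference between high and low FKBP5 was also compared between the sexes, 3 animals per cell. Of 10626 features 0 had an adjusted p under 0.05 by edgeR (0%; smallest 0.189), and 698 (6.57%) had an unadjusted p under it. DESeq2 called 12 (0.0919%). SH3RF2, a RING finger protein, had the smallest p. Its mean was 17.8 ± 3.22 CPM in high and 23.6 ± 4.30 CPM in low FKBP5 females, and 21.2 ± 6.13 CPM in high and 6.13 ± 1.44 CPM in low FKBP5 males (SD, n = 3). The male fold exceeded the female fold by 2.20 ± 0.34 (edgeR adjusted p = 0.189, DESeq2 adjusted p = 3.50e-05).

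CAMKK1, a kinase upstream of CaM kinases, went the other way. In females it had 44.2 ± 16.7 CPM with high and 11.3 ± 0.812 CPM with low FKBP5, and in males 11.1 ± 5.68 and 14.3 ± 1.24 CPM, a difference in folds of -2.33 ± 0.46 (edgeR adjusted p = 0.548). CREB5, WFDC1 and TSPAN9 had differences of -2.85, -1.91 and -1.15, and SLC9A2, a sodium-proton exchanger, 1.06. The edgeR test called none of these 6, while DESeq2 called all 6, with WFDC1, TSPAN9 and SLC9A2 at an adjusted p of 0.0488.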

How the data were processed

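Raw counts per gene were deposited by the authors, 2 tables per animal (whole annotation and regions with loci for water holding capacity). Per the submitters' processing notes, tools were TopHat2 2.0.3, Bowtie 0.12.7.0 and HTSeq with build Sscrofa10.2; strand setting and annotation release are not given in the sources used here. Antisense and overlapping genes therefore cannot be told apart. Per the labels' protocols, total RNA was made into libraries with the TruSeq kit. HTSeq's rows for reads outside genes were left out (no feature 24.2 to 29.3%, ambiguous 0.653 to 0.784% and not unique 12.8 to 15.5% of the table). Symbols matched 10349 of 20300 Ensembl IDs; 441 other features carry HSMMG identifiers. The whole-genome tables were assigned by the number they carry. Region tables, used only to check this, shared 737 to 745 of 770 counts with the table of their number and at most 167 with another.

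The counts of all 12 libraries entered one model in edgeR 4.0.16 under R 4.3.3 (TMM, filterByExpr, robust quasi-likelihood F-test, two-sided, Benjamini-Hochberg, threshold 0.05), with sex as a term and FKBP5 removed. The interaction fit had sex, FKBP5 group and their product. CPM is the count scaled to a whole table of 1000000, with TMM factors except for FKBP5 and albumin, and is not per length, so levels are not compared between genes. SE is of the log2 fold and was worked back from the test, as the absolute fold divided by the square root of its F value. Alternatives were DESeq2 1.42.0, limma 3.58.1 voom, other scaling, filters, covariates, groupings, subsets and leaving out each animal. The 4 against 8 grouping, the counts of unadjusted p and the list medians under each alternative were added after seeing the data.

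The members, gene lists and rule for named genes were chosen with earlier results of these data known. The rule took the 10 higher and 10 lower genes with a symbol and the smallest p, 3 of each list, 19 genes always given where measured, 8 genes most and 8 least like FKBP5, and 6 from the interaction. All tested adipocyte and lipogenesis members were added after their values were seen, and marker lists are given mainly by counts and sums. Counting depth limits genes of a few CPM most.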

Additional observations from a re-analysis of the deposited data

Results flagged for a closer look

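In each FKBP5 group of 6, an animal was marked where its gap to the nearest other animal took up most of the group's range, past Dixon's critical value. This was checked in 196 groups of values, and 13 were marked. Dixon's value marks about 1 in 20 groups of independent, normally distributed values. These are CPM of picked genes in shared animals, so that rate need not hold here. Values are CPM, and no explanation was tested.

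In the high FKBP5 group, low drip replicate 6 stood above the others for FASN (77.0, others 37.7 to 52.0) and for NR3C1 (81.1, others 49.2 to 58.9). Low drip replicate 2, the animal with the most FKBP5, stood above for PSAT1 (24.8, others 5.27 to 11.8). Low drip replicate 1 stood above for FOS, the immediate early gene (670, others 30.9 to 173). High drip replicate 2 stood above for IL6R (41.2, others 11.4 to 20.4) and HADHB (346, others 287 to 305). High drip replicate 6 stood far below for PDK4 (82.8, others 2013 to 3157).

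In the low FKBP5 group, high drip replicate 1 stood below for PDZRN3 (118, others 145 to 158) and above for LINGO1 (52.5, others 33.6 to 37.6). High drip replicate 3 stood above for SESN2 (13.1, others 3.31 to 6.14). Low drip replicate 5 stood above for NR3C1 (123, others 53.6 to 60.7) and for GGNBP2 (33.8, others 25.9 to 27.0). Low drip replicate 3 stood above for PLIN4 (239, others 126 to 164).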

How the results depend on the processing

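No paired analysis was possible because the labels carry no replicate numbers; those printed here only name the animals of a drip group in accession order. The count of features with an adjusted p under 0.05 was 0 and became 11 with DESeq2, 2 without the 2 animals nearest the threshold and 2 among low drip animals alone; leaving out each animal in turn gave 0 to 1, the 1 without high drip replicate 3. It stayed 0 in the other alternatives. The count under an unadjusted 0.05, 659, was 390 in males alone, 278 among high drip and 425 among low drip animals alone, and 359 among libraries with liver transcripts alone. It was 859 in females alone and 826 among libraries without liver transcripts, subsets of 6 animals as well, and 453 to 801 leaving out each animal. The interaction count of 0 was 12 with DESeq2. The age difference was -5.20 days (exact permutation p = 0.310) without the 2 animals nearest the threshold.

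Single genes turned direction as follows, none past the adjusted threshold; the causes were not tested. In males alone folds were 0.14 for DNAJB1, 0.11 for HSPD1, -0.055 for LUM, -0.035 for ELN, 0.19 for FKBP4, 0.076 for ZBTB16, -0.018 for TRIM63, -0.51 for PDK4, 0.011 for PLIN4 and 0.071 for ME1. In females alone FBXO32 had 0.67. Among high drip animals alone NR3C1 had 0.024, KLF9 -0.20, TRIM63 -0.15, PDK4 -0.93, PDHB 0.020 and ATP5MC3 0.014, and among low drip animals alone SGK1 had -0.061. In libraries with liver transcripts SESN2 had -0.098, NDUFB9 0.0091, FBXO32 0.11, SGK1 -0.21 and PDHB 0.0021. In those without them AKT2 had -0.022, HSPD1 0.095, ZBTB16 0.018 and TRIM63 -0.091. ZBTB16 had 0.0094 with voom, 0.0099 with upper quartile scaling, 0.028 with age added, 0.091 without the 2 animals at the threshold and 0.13 with 4 against 8. FBXO32 had 0.044 with 4 against 8. With FKBP5 continuous ZBTB16 had a slope of 0.090 per log2 unit of FKBP5 CPM, which is not a fold between groups. PDK4 had -0.30 with voom and -0.15 with drip added. Leaving out each animal gave -0.26 to 0.014 for NR3C1, -0.10 to 0.058 for ZBTB16, -0.38 to 0.15 for FBXO32, -0.048 to 0.40 for TRIM63 and -0.099 to 0.44 for PDK4.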
